A study of Mus musculus with 24 samples.

Results

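This account concerns the interaction of cardiomyocyte Sirt5 deletion with pressure overload, which is how far the response of the cardiac transcriptome to overload differs between hearts of mice with and without a cardiomyocyte deletion of Sirt5. It used all 24 libraries of the series, 6 whole hearts of male mice in each of 4 groups, taken 12 weeks after surgery. Mice labelled cSirt5KO carried floxed Sirt5 alleles and the cardiomyocyte-specific Myh6-cre transgene, on a C57BL6J background, and were given transverse aortic constriction (TAC) or a Sham operation. Control mice carried the floxed alleles without Cre and were given TAC or Sham. By the study's methods, cSirt5KO hearts carried Cre and Control hearts did not, so that effects of Cre and of the deletion cannot be told apart. The other cells of the heart kept Sirt5. The ages of the mice are not given in the sources used here. For each of the 24239 genes in the table the interaction was (cSirt5KO TAC minus cSirt5KO Sham) minus (Control TAC minus Control Sham) on log2(normalized count + 1). A positive value means that the gene was higher after TAC, or less reduced, in cSirt5KO relative to Control hearts. Whole-heart RNA does not separate fewer cells of a type from less RNA per cell.

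TAC narrows the aorta, so that the left ventricle pumps against a higher pressure. The overloaded heart is known to re-express genes of the fetal program such as those of natriuretic peptides and beta-myosin, to lay down matrix, and to lower the expression of enzymes that burn fatty acids and branched-chain amino acids. SIRT5 is a mitochondrial member of the NAD-dependent sirtuins that removes succinyl, malonyl and glutaryl groups from lysines, and many of its substrates are enzymes of these same pathways.

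Depth per library, as whole reads recovered from the deposited values, lay between 22.5 and 35.8 M reads. Between 11.2 and 28.4% of these came from the mitochondrial genome. Ribosomal RNA stood at 23.4% in Control TAC replicate 2 and at 0.509 to 4.18% elsewhere. Sirt5 (ENSMUSG00000054021; chromosome 13, 43518972 to 43548679), with this and all later gene positions in mm39, had 85.6 to 139 normalized counts in 9 of the 12 cSirt5KO libraries, against 388 to 807 in Control libraries. The library labelled cSirt5KO TAC replicate 2 held 886 and that labelled cSirt5KO TAC replicate 4 held 499, within or above the Control range, and the library labelled cSirt5KO Sham replicate 3 held 259. A pair of library properties was spread unevenly over the groups. In 145 pairs of an antisense gene and its abundant partner, the log2 ratio of antisense to sense reads was −9.51 to −8.88 in 10 libraries, called set 1, and −11.33 to −10.81 in the other 14, called set 2. Set 1 held 4 cSirt5KO Sham hearts but 2 of each other group. Numbers in the labels, taken here to be animal numbers, were divided by size into 3 series. The limits between series were chosen here, other limits were not tested, and the sources used here name no such series. The lowest series held 2 cSirt5KO TAC, 0 cSirt5KO Sham, 4 Control TAC and 4 Control Sham hearts. The middle series held 4 cSirt5KO TAC, 2 cSirt5KO Sham and 2 Control Sham hearts, and the highest 4 cSirt5KO Sham and 2 Control TAC hearts. In the highest series the cSirt5KO Sham numbers did not adjoin the Control TAC numbers. No series held all 4 groups, so the interaction cannot be computed within a series. Fits with the series as a covariate take its effect to be alike in every group. Ventricular cardiomyocyte markers were abundant in all libraries, with a mean log2 level over 10 genes of 16.80 to 17.57, median 17.14, in cSirt5KO TAC hearts and medians of 17.25 in cSirt5KO Sham, 16.93 in Control TAC and 17.33 in Control Sham hearts.

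The response to TAC differed between genotypes in 22 genes (0.0908% of those tested). Of these, 13 (0.0536%) had a positive and 9 (0.0371%) a negative interaction, at an adjusted p under 0.1 and more than 1.5-fold, which are the study's thresholds. DESeq2, run on the recovered reads at the same thresholds, called 268 genes, 138 with a positive and 130 with a negative interaction, and 21 of the 22 were among them. All 13 genes with a positive interaction were lower after TAC than after Sham in Control hearts, and all 9 with a negative interaction were higher. The median size of the TAC difference over the 22 genes was 0.20 in cSirt5KO hearts and 1.13 in Control hearts on the log2 scale, and it was smaller in cSirt5KO hearts for 20 genes, the exceptions being Adm and H2-T22. Control TAC values did not overlap Control Sham values for 20 of the 22 genes (5.25% of all genes), whereas cSirt5KO TAC and cSirt5KO Sham values were apart for 1 gene, Adm (0.891% of all genes). These separations come from the contrast that chose the genes and describe them only.

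Written the other way, the interaction is the difference between genotypes after TAC minus that after Sham, and both ends contributed. Over the 22 genes the median size of the difference between cSirt5KO and Control hearts was 0.59 after TAC and 0.39 after Sham, and for 21 genes the 2 differences had opposite signs. Drd2 was the exception, being higher in cSirt5KO hearts after both surgeries. Choosing genes by the interaction favours opposite signs, so this count describes the chosen genes only. Some signs rest on values near 0, as the Sham differences of −0.0048 for Pla2g5 and −0.016 for Itgb1bp2. The difference after TAC was the larger in 13 genes and that after Sham in 9. Gpt, Fbp2, Pla2g5, Drd2, Synpo2l and Pde8a differed mainly after TAC, whereas Acot1, Gm31663, Ccnd2, H2-T22 and Gm40658 differed mainly after Sham.

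**Figure D1:**
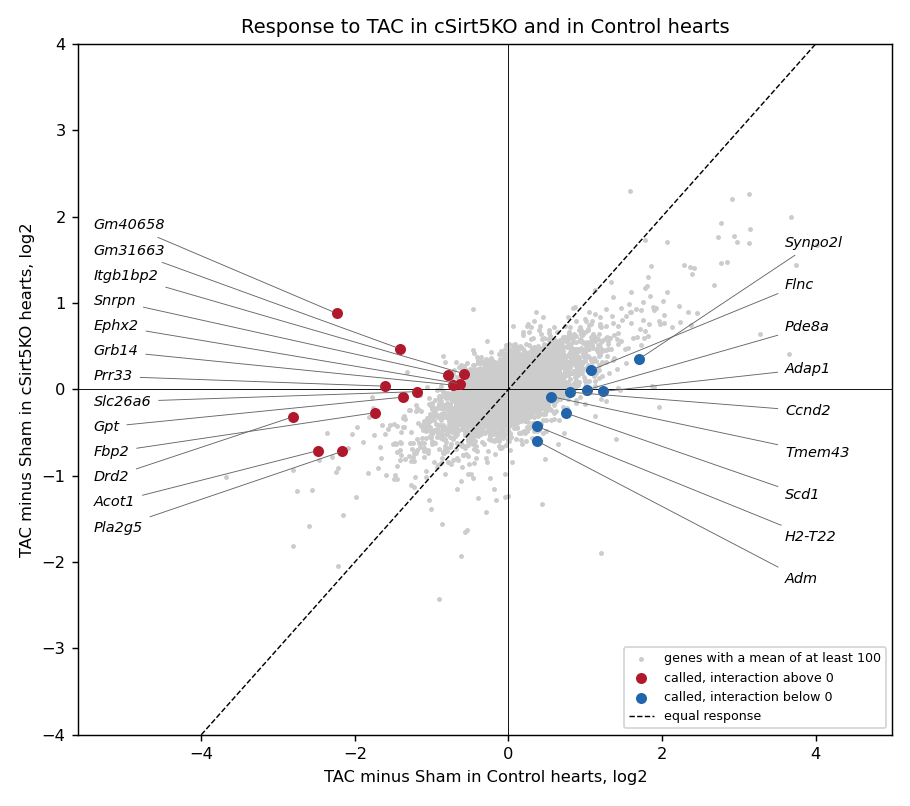
Response to TAC of each gene in cSirt5KO hearts (y axis) and in Control hearts (x axis), both as TAC minus Sham on the log2 scale; grey points are the 10934 genes whose mean reached 100 normalized counts, coloured points the 22 called genes, and the dashed line is an equal response. The called genes lie near 0 on the y axis, with a median size of 0.20, and spread along the x axis, with a median size of 1.13.

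Among genes of the contractile apparatus and its surroundings, Synpo2l, Flnc and Tmem43 had negative interactions and Itgb1bp2 a positive one. Synpo2l (ENSMUSG00000039376; chromosome 14, 20709014 to 20718422) encodes an actin-binding protein of the Z-disc, the plate that anchors thin filaments. In normalized counts, it had 5843 to 10784 in cSirt5KO TAC hearts, median 8673, against 5266 to 10211 in cSirt5KO Sham hearts, median 5974. Control values were 10076 to 23473 after TAC, median 16815, against 3909.7 to 7093 after Sham, median 4759. Every Control TAC heart exceeded every Control Sham heart, while the cSirt5KO groups overlapped, with medians between those of the Control groups, and the interaction was −1.35 (standard error 0.28, adjusted p = 0.0658). Flnc (ENSMUSG00000068699; chromosome 6, 29433255 to 29461882), which encodes the actin crosslinker filamin C of Z-discs and intercalated discs, had 15053 to 19054 in cSirt5KO TAC hearts, median 17611, against 12284 to 22205 in cSirt5KO Sham hearts, median 14290.2. Control hearts had 22465 to 30494 after TAC, median 24366, against 10110.3 to 16906 after Sham, median 11406. Filamin C messages were thus apart between the Control groups and overlapped between the cSirt5KO groups, with an interaction of −0.85 (standard error 0.18, adjusted p = 0.0868). The highest cSirt5KO Sham value of both genes came from replicate 5.

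Itgb1bp2 (ENSMUSG00000031312; chromosome X, 100492694 to 100497147) encodes melusin, a muscle protein that binds the tail of beta1 integrin and is known to sense mechanical load, and its interaction had the opposite sign. Its counts were 3753 to 5452 in cSirt5KO TAC hearts, median 4809.8, against 3582 to 5618 in cSirt5KO Sham hearts, median 3851. Control hearts held 2130.4 to 3438 after TAC, median 2942, against 3899 to 4616 after Sham, median 4168. Melusin messages were lower in each Control TAC heart than in any Control Sham heart while the cSirt5KO groups overlapped, and the interaction was 0.75 (standard error 0.17, adjusted p = 0.0957). Tmem43, which encodes the nuclear envelope protein LUMA, had the smallest standard error of the 22 genes, with 835 to 959 in cSirt5KO TAC hearts, median 945, against 926 to 1062 in cSirt5KO Sham hearts, median 982. The Control range was 964 to 1311 after TAC, median 1056, against 659 to 807 after Sham, median 767. The Control groups were apart and the cSirt5KO groups were not, and the interaction was −0.64 (standard error 0.11, adjusted p = 0.029).

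Promoters of called genes with interactions of both signs are shown: the Z-disc genes had negative interactions and the metabolic gene Fbp2 a positive one. The motif marked in each window was picked for that gene from motifs known from muscle or metabolic gene control. A link between motif and sign was not tested. The RefSeq table (build GRCm38.p6, 250 bases before to 50 bases after each annotated start) matched 16 of the 22 called genes. Capitals mark a match on either strand to MEF2 in Synpo2l (chr14:20668305-20668604, minus strand), to the TEAD motif GGAATG in Flnc (chr6:29432903-29433202, plus strand) and to the E-box CACGTG in Fbp2 (chr13:62858351-62858650, minus strand).
Synpo2l: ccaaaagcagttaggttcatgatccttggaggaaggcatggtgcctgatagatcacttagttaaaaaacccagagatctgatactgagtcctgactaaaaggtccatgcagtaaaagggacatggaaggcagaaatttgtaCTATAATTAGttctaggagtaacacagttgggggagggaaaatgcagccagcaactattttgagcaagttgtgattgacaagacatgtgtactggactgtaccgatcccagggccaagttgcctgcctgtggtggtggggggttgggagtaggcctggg
Flnc: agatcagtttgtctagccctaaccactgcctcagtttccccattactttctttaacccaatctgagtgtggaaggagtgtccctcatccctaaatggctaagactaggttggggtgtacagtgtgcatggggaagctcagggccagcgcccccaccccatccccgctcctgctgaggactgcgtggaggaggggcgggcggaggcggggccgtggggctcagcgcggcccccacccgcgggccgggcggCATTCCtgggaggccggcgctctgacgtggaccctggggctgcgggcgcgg
Fbp2: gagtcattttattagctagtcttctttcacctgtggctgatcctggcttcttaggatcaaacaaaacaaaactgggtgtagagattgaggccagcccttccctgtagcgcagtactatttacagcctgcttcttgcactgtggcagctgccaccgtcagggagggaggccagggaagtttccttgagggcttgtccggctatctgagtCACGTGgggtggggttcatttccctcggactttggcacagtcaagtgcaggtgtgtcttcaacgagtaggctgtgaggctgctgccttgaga
The MEF2 motif lay at −109 relative to the first of the 2 annotated starts of Synpo2l, was not matched in the window of the other start, and lay in 0.557% of all 32851 promoters in the table, and among the 16 called genes Synpo2l alone carried it. GGAATG was found in 3 of the 16, and in 14.7% of all promoters. The 3 were Flnc, with a negative interaction, and Pla2g5 and Snrpn, with positive ones. CACGTG was found in 1 of the 16, Fbp2, at −42, and in 7.15% of all promoters. The CCAAT box, searched as CCAAT, was found in 7 of the 16 and in 37.4% of all promoters. A called gene was counted if any of its windows matched, whereas the percentages are of single windows, so the 2 are unlike measures. A match of letters is a description of the window and not a site of binding.

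Several called genes encode enzymes or carriers, with positive interactions for Gpt, Fbp2, Acot1, Ephx2, Pla2g5 and Slc26a6 and negative ones for Scd1 and Pde8a. Gpt (ENSMUSG00000022546; chromosome 15, 76579916 to 76583886) encodes the cytosolic alanine aminotransferase, which interconverts alanine and pyruvate. In normalized counts, it had 659.8 to 1245 in cSirt5KO TAC hearts, median 959, against 898 to 1263 in cSirt5KO Sham hearts, median 953. Control hearts had 307 to 601 after TAC, median 484, against 936 to 1412 after Sham, median 1148. The 6 Control TAC hearts were below all 18 others, and the interaction was 1.28 (standard error 0.23, adjusted p = 0.029). Fbp2 (ENSMUSG00000021456; chromosome 13, 62984691 to 63006236), the muscle form of the gluconeogenic enzyme fructose bisphosphatase, had 306 to 576 in cSirt5KO TAC hearts, median 479, against 439 to 679 in cSirt5KO Sham hearts, median 504. In Control hearts the counts were 99.8 to 329 after TAC, median 203, against 447 to 858 after Sham, median 728. All Control TAC values were below all Control Sham values, and the cSirt5KO groups overlapped, giving an interaction of 1.47 (standard error 0.30, adjusted p = 0.0658).

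Acot1 (ENSMUSG00000072949; chromosome 12, 84056264 to 84065145) encodes a cytosolic thioesterase that releases free fatty acids from acyl-CoA and is a classic target of the fatty acid receptor PPAR alpha. It had 93.6 to 197 in cSirt5KO TAC hearts, median 131, against 189 to 255 in cSirt5KO Sham hearts, median 222. Control hearts had 36.3 to 183 after TAC, median 111, against 323 to 759.7 after Sham, median 469. Control Sham hearts stood above all 18 others, and the interaction was 1.78 (standard error 0.38, adjusted p = 0.0868). The difference between genotypes was 0.59 after TAC and −1.19 after Sham. Reads of Acot1 can be shared with its near-identical neighbour Acot2, whose own interaction was 0.66 (adjusted p = 0.195). Ephx2 (ENSMUSG00000022040; chromosome 14, 66321823 to 66361949), the soluble epoxide hydrolase that degrades epoxy fatty acids, had 5575 to 6817 in cSirt5KO TAC hearts, median 6351, against 4798 to 6813 in cSirt5KO Sham hearts, median 5985. Control hearts held 3728 to 5287 after TAC, median 4604, against 6238 to 7842 after Sham, median 7081. The Control groups were apart, the cSirt5KO groups overlapped, and the interaction was 0.69 (standard error 0.13, adjusted p = 0.029).

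Lipid genes were called in both directions. Pla2g5 (ENSMUSG00000041193; chromosome 4, 138526555 to 138590793), which encodes a secreted phospholipase, had 348 to 825 in cSirt5KO TAC hearts, median 647, against 719.6 to 1276 in cSirt5KO Sham hearts, median 982. Control hearts had 161 to 348 after TAC, median 214, against 633 to 1385 after Sham, median 1019.9. The TAC difference was −0.72 in cSirt5KO and −2.17 in Control hearts on the log2 scale, so that the interaction of 1.45 (adjusted p = 0.029) stands for a smaller difference of the same sign. Scd1, which encodes the stearoyl-CoA desaturase of fatty acid synthesis, had the opposite sign, with TAC differences of −0.28 in cSirt5KO and 0.75 in Control hearts and an interaction of −1.03 (adjusted p = 0.0957). Grb14, an adaptor that binds and inhibits the insulin receptor, had 3466 to 4814 in cSirt5KO TAC hearts, median 3623, against 3235 to 4026 in cSirt5KO Sham hearts, median 3779. Among Control hearts it had 2408 to 3459.5 after TAC, median 3053, against 4019.9 to 5541 after Sham, median 4977, and the interaction was 0.77 (standard error 0.15, adjusted p = 0.029). Slc26a6, an exchanger of chloride and bicarbonate in the cardiomyocyte membrane, had TAC differences of −0.026 in cSirt5KO and −1.19 in Control hearts, and an interaction of 1.16 (adjusted p = 0.0868).

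**Figure D2:**
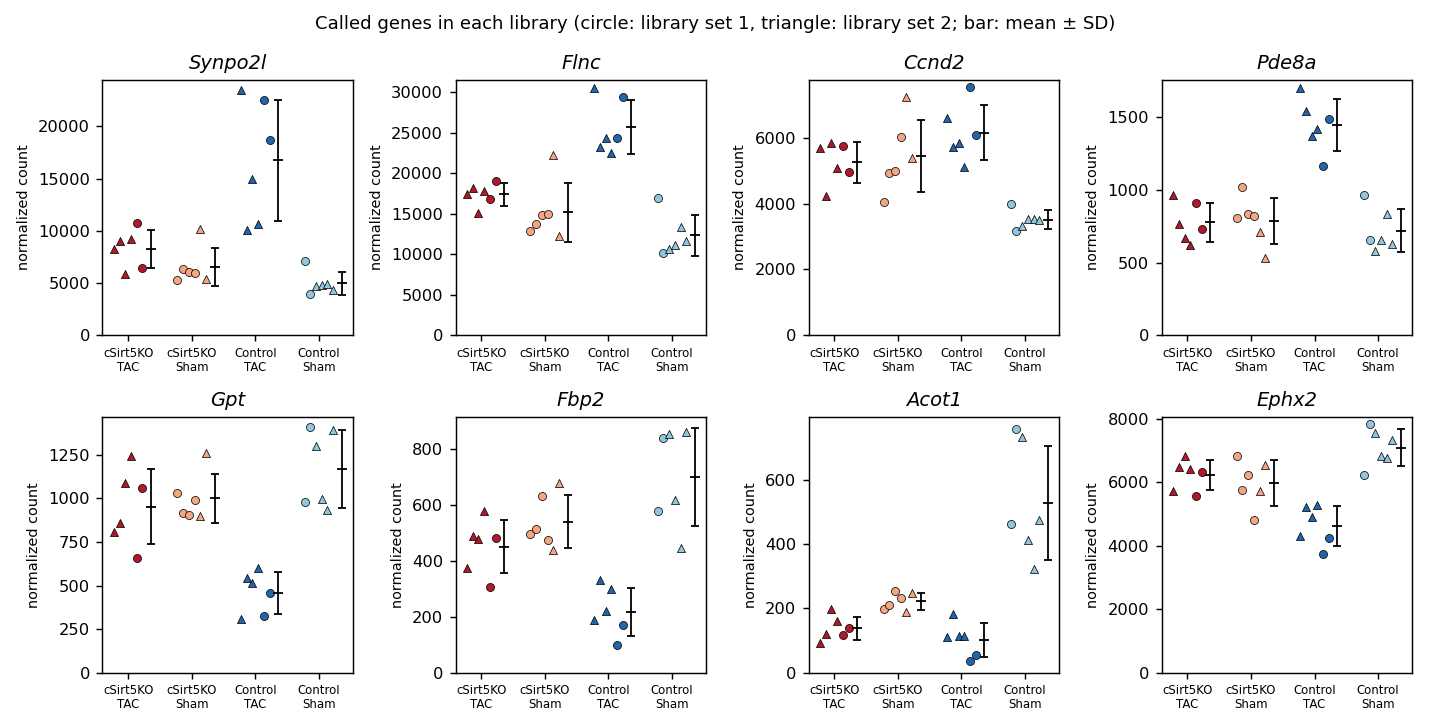
Normalized counts (y axis) of 8 called genes in each library of the 4 groups, circles for library set 1 and triangles for library set 2, with the mean ± SD of the 6 hearts beside the points. In each gene the Control TAC hearts stand apart from the Control Sham hearts while the cSirt5KO groups overlap; in Acot1 the cSirt5KO Sham hearts, at 189 to 255, lie below the Control Sham hearts, at 323 to 760.

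Among genes of signalling and the cell cycle, Ccnd2 (ENSMUSG00000000184; chromosome 6, 127102125 to 127129156), which encodes the G1 cyclin D2, had 4239 to 5837 in cSirt5KO TAC hearts, median 5395, against 4064 to 7247 in cSirt5KO Sham hearts, median 5184. Control hearts had 5125 to 7552 after TAC, median 5981, against 3163 to 3996 after Sham, median 3527. Control Sham hearts were below all 18 others, and the interaction was −0.83 (standard error 0.16, adjusted p = 0.029). Pde8a (ENSMUSG00000025584; chromosome 7, 80863344 to 80984281), a phosphodiesterase that hydrolyses cAMP, had 624 to 961 in cSirt5KO TAC hearts, median 751, against 529 to 1018 in cSirt5KO Sham hearts, median 811. In Control hearts the counts were 1163 to 1699 after TAC, median 1455, against 581 to 964 after Sham, median 654. Here the Control TAC hearts were above all others, with a TAC difference of −0.004 in cSirt5KO and 1.02 in Control hearts and an interaction of −1.03 (standard error 0.20, adjusted p = 0.029).

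Adm, which encodes the vasodilator peptide adrenomedullin, was the gene for which the cSirt5KO pair was apart. It had 111 to 153 in cSirt5KO TAC hearts, median 128, against 173 to 219 in cSirt5KO Sham hearts, median 187. Control hearts had 145 to 268 after TAC, median 195, against 122 to 169 after Sham, median 153, and overlapped. The TAC difference was −0.60 in cSirt5KO and 0.37 in Control hearts, and the interaction was −0.96 (standard error 0.21, adjusted p = 0.0868). Drd2 (ENSMUSG00000032259; chromosome 9, 49251927 to 49319477), the dopamine D2 receptor, had 82.7 to 129.8 in cSirt5KO TAC hearts, median 102, against 86.1 to 341 in cSirt5KO Sham hearts, median 106. Control hearts had 4.53 to 25.9 after TAC, median 11.2, against 55.9 to 154 after Sham, median 90.2. All 6 Control TAC hearts were below all 18 others, and the interaction of 2.49 (standard error 0.47, adjusted p = 0.029) was the second highest, with the highest cSirt5KO Sham value in replicate 6. Adap1, which encodes a protein that binds inositol phosphates and acts on ARF GTPases, had TAC differences of −0.024 in cSirt5KO and 1.23 in Control hearts, and an interaction of −1.25 (adjusted p = 0.0465).

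The remaining called genes do not share a function. Prr33, a gene for a proline-rich protein, had 118 to 203 in cSirt5KO TAC hearts, median 154, against 129 to 188 in cSirt5KO Sham hearts, median 147. Control hearts had 56.7 to 163 after TAC, median 86.3, against 212 to 315 after Sham, median 290.2, and the interaction was 1.64 (standard error 0.28, adjusted p = 0.029). Snrpn, an imprinted gene of a splicing ribonucleoprotein, had an interaction of 0.96 (adjusted p = 0.029) with TAC differences of 0.17 in cSirt5KO and −0.79 in Control hearts, and its reads cannot be told from those of the overlapping Snurf. H2-T22, a nonclassical MHC class I gene with close relatives that may share reads, had an interaction of −0.81 (adjusted p = 0.0868). The predicted genes Gm31663 and Gm40658 had interactions of 1.88 (adjusted p = 0.029) and 3.12 (adjusted p = 0.0957), and Gm40658 had at most 9.70 normalized counts in any library. Mapt, which encodes the microtubule protein tau, passed the p threshold but not the fold threshold, at −0.53 (standard error 0.10, adjusted p = 0.029). The called gene nearest to the p threshold was Itgb1bp2 at an adjusted p of 0.0957, and the genes just outside it were the predicted gene Gm45805 (2.92, adjusted p = 0.101), Il15, which encodes interleukin 15 (1.09, adjusted p = 0.102) and Kif3c, a kinesin motor (−0.70, adjusted p = 0.102).

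Functions were described with 48 gene lists, by the number of genes at an unadjusted limma p under 0.05 and by the median interaction. Over all genes 9.81% were at p under 0.05, 4.86% with a positive and 4.95% with a negative interaction, called a higher and a lower response here, and the median interaction was −0.034. Among the 10934 genes whose mean reached 100 the share was 14.4%. Of the 16 genes of hypertrophy and the fetal program, 9 had a lower response in cSirt5KO hearts at this p and 1 a higher one, with a median interaction of −0.93, or −0.56 with the series of animal numbers in the fit. The median TAC difference was 0.71 in cSirt5KO hearts and 1.84 in Control hearts. Ankrd1, which encodes a stress-induced ankyrin repeat protein that binds titin, had an interaction of −1.26 (standard error 0.33, adjusted p = 0.16). Its counts were 126495 to 212617 in cSirt5KO TAC hearts, median 160883, against 65750.3 to 162755 in cSirt5KO Sham hearts, median 92120.1. Control hearts had 90962 to 208065 after TAC, median 177921, against 26933 to 62867 after Sham, median 35246, so the levels after TAC overlapped between genotypes while cSirt5KO Sham hearts all stood above Control Sham hearts.

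Myh7, the beta-myosin heavy chain gene of the fetal ventricle, had 18176 to 200735 in cSirt5KO TAC hearts, median 68915, against 8104 to 61404 in cSirt5KO Sham hearts, median 23257. Control hearts had 64520.2 to 230381 after TAC, median 150464, against 5496 to 27068 after Sham, median 7544. The interaction was −2.35 (standard error 0.67, adjusted p = 0.196), with wide overlap between the cSirt5KO groups. Enah, which encodes an actin regulator of intercalated discs, had TAC differences of 0.56 in cSirt5KO and 1.29 in Control hearts (interaction −0.73, adjusted p = 0.16). None of these 3 genes passed the adjusted threshold. Of the 34 sarcomere and Z-disc genes, 7 had a lower and 3 a higher response at an unadjusted p under 0.05, and 2 were called lower, Synpo2l and Flnc. The next member, Nrap, which encodes an anchor of actin at the intercalated disc, had 23304 to 28097 in cSirt5KO TAC hearts, median 25286, against 18956 to 29374 in cSirt5KO Sham hearts, median 21655. Control hearts had 35105 to 51213 after TAC, median 45711, against 18062 to 29720.2 after Sham, median 24244, with all Control TAC hearts above all others and an interaction of −0.74 (standard error 0.17, adjusted p = 0.112).

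Adult contractile and channel genes had the reverse pattern, with 8 higher and 1 lower of 21 and a median interaction of 0.29, or 0.091 with the series in the fit. The 3 with the lowest p encode potassium channel subunits, Kcnj3 (1.01, adjusted p = 0.201), Kcnh2 (0.49, adjusted p = 0.268) and Kcnd2 (0.91, adjusted p = 0.351). Kcnj3 is also in the list of 9 atrial cardiomyocyte markers used below, whose median interaction was −1.98. In the list of cell-matrix and cytoskeletal linkage, 6 of 28 genes had a lower response and Itgb1bp2 a higher one, and Tln1, which encodes the integrin linker talin, had an interaction of −0.46 (adjusted p = 0.16).

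Matrix and TGF-beta lists had negative median interactions. Of 36 matrix glycoproteins and crosslinking genes, 7 had a lower and 0 a higher response, with a median interaction of −0.55 and median TAC differences of 0.69 in cSirt5KO and 1.37 in Control hearts. Ccn2, which encodes connective tissue growth factor, led the list with 4768 to 13329.9 in cSirt5KO TAC hearts, median 9170.5, against 2722 to 11777 in cSirt5KO Sham hearts, median 5504. For Control hearts the counts were 3954 to 23216 after TAC, median 9233, against 1421 to 4239.9 after Sham, median 1656. Its interaction was −1.64 (standard error 0.50, adjusted p = 0.225), and TAC and Sham values overlapped in both genotypes. Ccn1, a relative of Ccn2, and Mfap4, a microfibril protein gene, followed at −0.64 (adjusted p = 0.322) and −1.40 (adjusted p = 0.406). Of 19 collagens, 1 had a lower and 0 a higher response, with a median interaction of −0.28, which was −0.042 without Control TAC replicate 5 and −0.18 without cSirt5KO Sham replicate 6. In TGF-beta signalling 5 of 17 genes had a lower response, led by the ligand genes Tgfb2 (−1.21, adjusted p = 0.205), Tgfb3 (−0.75, adjusted p = 0.353) and Bmp6 (−0.52, adjusted p = 0.365). With the series of animal numbers in the fit, the median interaction was 0.10 in the matrix glycoproteins and 0.44 in the collagens.

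Genes of mitochondrial oxidation had positive median interactions across pathways. Of 30 genes of fatty acid uptake and oxidation, 18 had a higher and 1 a lower response at an unadjusted p under 0.05. The median interaction was 0.42, with median TAC differences of −0.16 in cSirt5KO and −0.60 in Control hearts. Acaa2, the thiolase of the last step of mitochondrial beta-oxidation, had 12564 to 21259 in cSirt5KO TAC hearts, median 17611, against 17213 to 21949.6 in cSirt5KO Sham hearts, median 19787. In Control hearts it had 5915 to 15424 after TAC, median 11286, against 19345 to 29182 after Sham, median 24045. Its interaction was 0.88 (standard error 0.23, adjusted p = 0.16), and the Control groups were apart. Slc25a20, the carnitine-acylcarnitine carrier, had an interaction of 0.62 (adjusted p = 0.154), and Eci2, an enoyl-CoA isomerase, of 0.52 (adjusted p = 0.19).

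In the tricarboxylic acid cycle 10 of 18 genes had a higher and 0 a lower response (median 0.37), led by Idh3a, a subunit of isocitrate dehydrogenase (0.52, adjusted p = 0.16), and Suclg1, a subunit of succinyl-CoA ligase (0.60, adjusted p = 0.204). In branched-chain amino acid oxidation the counts were 12 and 0 of 22 (median 0.34). Mccc2, a subunit of the carboxylase of leucine breakdown, had 1196 to 1683 in cSirt5KO TAC hearts, median 1348, against 1308 to 1577 in cSirt5KO Sham hearts, median 1456. Control values were 791 to 1376 after TAC, median 1115, against 1451 to 2006 after Sham, median 1885, with an interaction of 0.67 (standard error 0.16, adjusted p = 0.135). Bckdhb, a subunit of the branched-chain ketoacid dehydrogenase, and Ppm1k, the phosphatase that activates this dehydrogenase, followed at 0.67 (adjusted p = 0.205) and 0.74 (adjusted p = 0.26). In pyruvate entry and ketone use 6 of 15 genes had a higher response, led by Pdp2, a phosphatase that activates pyruvate dehydrogenase (1.06, adjusted p = 0.142).

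Nuclear genes of the respiratory chain and ATP synthase had 34 higher and 0 lower of 73, with a median interaction of 0.39 and 72 positive values. The lowest p belonged to Ndufc2, a subunit of complex I (0.61, adjusted p = 0.165), Atp5pb, a subunit of ATP synthase (0.64, adjusted p = 0.216), and Cycs, cytochrome c (0.60, adjusted p = 0.26). Mitochondrial ribosomal proteins had 30 higher and 0 lower of 76 (median 0.31), led by Mrps35 (0.51, adjusted p = 0.196). The 13 messages encoded by the mitochondrial genome had none in either direction, with a median interaction of −0.056, and median TAC differences of −0.59 in cSirt5KO and −0.58 in Control hearts. No gene of these oxidative lists was called. With the series as a covariate the medians were 0.14 for fatty acid oxidation, 0.12 for the tricarboxylic acid cycle, 0.065 for branched-chain oxidation, 0.20 for the respiratory chain and 0.14 for mitochondrial ribosomal proteins. In the same order they were 0.38, 0.23, 0.32, 0.12 and 0.09 within the 14 libraries of set 2, and 0.69, 0.47, 0.41, 0.57 and 0.48 within the 10 of set 1. With library set and series both in the fit, the medians were 0.11, 0.074, 0.032, 0.080 and 0.078 in that order. Without both cSirt5KO TAC libraries of high Sirt5 they were 0.40, 0.37, 0.35, 0.25 and 0.20. Ventricular cardiomyocyte markers had the same sign as these lists, with 9 of 10 positive interactions, 0 of them at an unadjusted p under 0.05, a median of 0.25 and median TAC differences of −0.17 in cSirt5KO and −0.39 in Control hearts. Their part in the oxidative lists was not tested. Cytosolic ribosomal protein genes had 72 positive interactions of 88, with a median of 0.11. Among genes whose mean reached 100, the median interaction was 0.10 at gene spans under 5 kb and −0.12 at 200 to 500 kb. The part of gene span in the list medians was not tested.

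**Figure D3:**
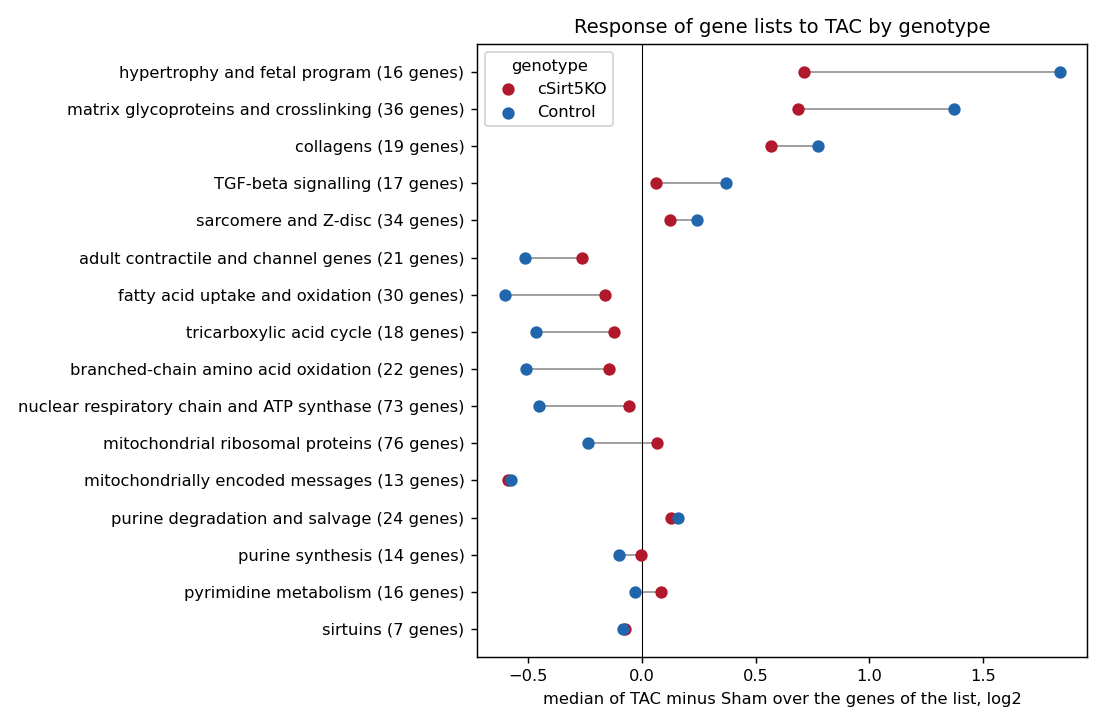
Median response to TAC (x axis, TAC minus Sham on the log2 scale) over the genes of 16 lists, in cSirt5KO and in Control hearts. Hypertrophy and matrix lists are at 0.71 and 0.69 in cSirt5KO hearts, against 1.84 and 1.37 in Control hearts, and the oxidative lists lie nearer to 0 in cSirt5KO hearts. With all 24 libraries, the mitochondrially encoded, purine and sirtuin lists show little distance between genotypes.

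The level of a list in a library, as the mean of log2(normalized count + 1) over its genes, showed where the distances arose. The fatty acid list was at 12.42 to 12.86, median 12.71, in cSirt5KO TAC hearts and at 12.74 to 12.90, median 12.82, in cSirt5KO Sham hearts. In Control hearts it was at 11.85 to 12.77, median 12.52, after TAC and at 12.86 to 13.22, median 13.06, after Sham. Control groups were apart, the cSirt5KO groups overlapped, and the lowest library was a Control TAC heart. The hypertrophy list was at 12.59 to 13.47, median 12.92, in cSirt5KO TAC and at 11.83 to 12.95, median 12.27, in cSirt5KO Sham hearts. Control hearts were at 12.67 to 13.37, median 13.06, after TAC and 10.99 to 12.33, median 11.23, after Sham, so that TAC hearts of both genotypes reached like levels and the Sham hearts differed more.

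**Figure D4:**
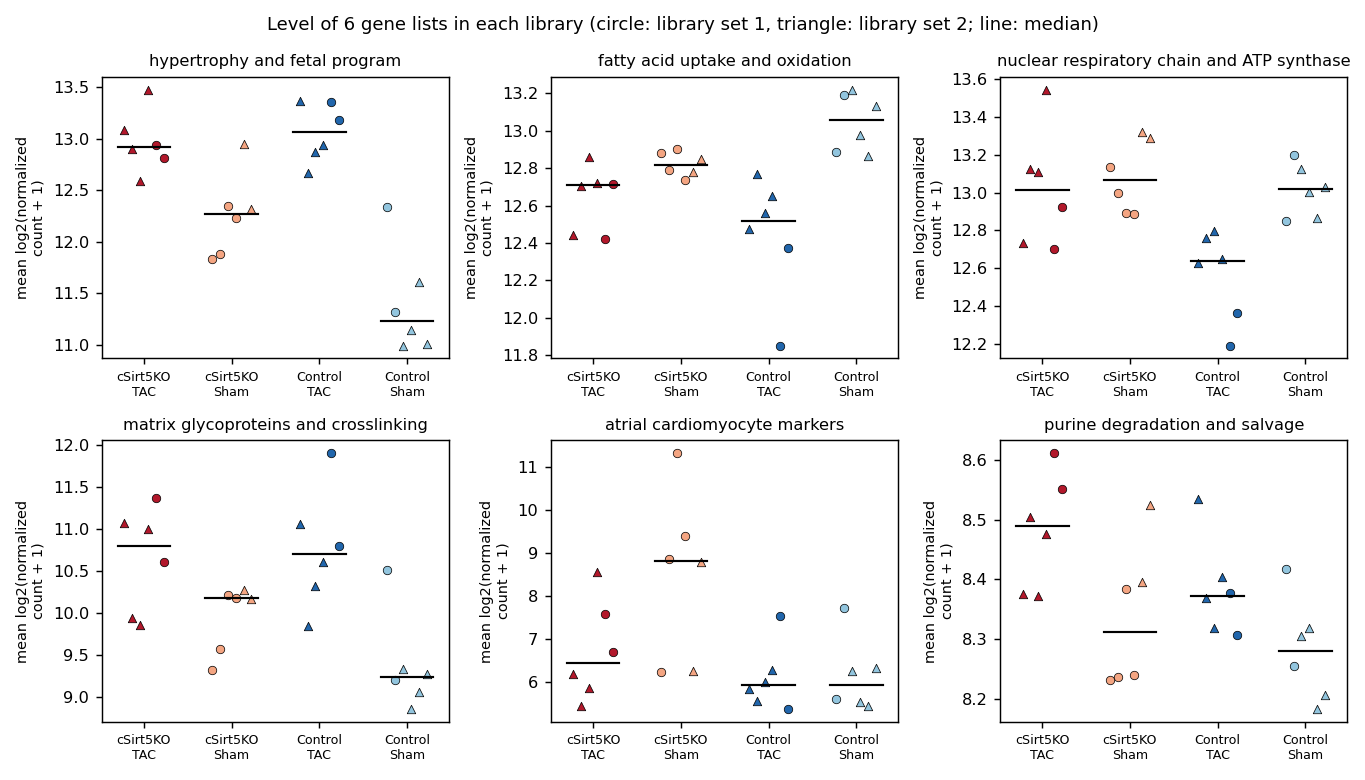
Mean of log2(normalized count + 1) over the genes of 6 lists (y axis) in each library of the 4 groups, circles for library set 1, triangles for library set 2, and a line at the median. The hypertrophy list has medians of 12.92 in cSirt5KO TAC, 12.27 in cSirt5KO Sham, 13.06 in Control TAC and 11.23 in Control Sham hearts, and atrial markers reach 11.32 in a cSirt5KO Sham heart.

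The study also turned to purine and pyrimidine metabolism. Of 24 genes of purine degradation and salvage, 3 had a higher and 2 a lower response at an unadjusted p under 0.05 (median interaction −0.01), in purine synthesis 2 and 1 of 14, and in pyrimidine metabolism 1 and 1 of 16. The median for purine degradation and salvage differed in sign between library sets, at 0.38 within set 1 alone and −0.17 within set 2 alone. Adk, the adenosine kinase that returns adenosine to AMP, had 3248 to 4606 in cSirt5KO TAC hearts, median 3798, against 3109 to 3669 in cSirt5KO Sham hearts, median 3495. The Control range was 3047 to 4394 after TAC, median 3602, against 3806 to 4745 after Sham, median 4476. TAC and Sham values overlapped in both genotypes, and the interaction was 0.39 (standard error 0.13, adjusted p = 0.254). Nt5c2, a cytosolic nucleotidase that acts on IMP, had the lowest p at −0.45 (adjusted p = 0.142), and Entpd5, which hydrolyses nucleoside diphosphates, was at 0.48 (adjusted p = 0.389).

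Of the other genes that the study names for these pathways, Nt5e, the ectonucleotidase that makes adenosine, was at −0.47 (adjusted p = 0.468), Pnp, the purine nucleoside phosphorylase, at 0.22 (adjusted p = 0.831) and Aprt, which salvages adenine, at 0.34 (adjusted p = 0.684). Hprt, which salvages hypoxanthine and guanine, was at 0.15 (adjusted p = 0.743). Dpyd, the first enzyme of pyrimidine breakdown, was at 0.66 (adjusted p = 0.467) and Upp1, the uridine phosphorylase, at −0.38 (adjusted p = 0.744). None passed the threshold, so for these 6 genes and Adk a different response to TAC was not shown, and a difference between genotypes that was alike after both surgeries would not appear in this contrast. Sirt5 itself had an interaction of 0.67 (standard error 0.55, adjusted p = 0.736), with both libraries of high Sirt5 in the cSirt5KO TAC group, and 0 of the 7 sirtuin genes were at an unadjusted p under 0.05.

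Stress and immune lists were mixed. In the integrated and mitochondrial stress response 4 of 20 genes had a higher and 2 a lower response. Hspd1, the mitochondrial chaperonin, was at 0.55 (adjusted p = 0.165), and Gdf15, a secreted stress cytokine, was at −2.64 (adjusted p = 0.208), with 86.2 to 449 in cSirt5KO TAC hearts, median 296, against 74.9 to 414 in cSirt5KO Sham hearts, median 127. In Control hearts Gdf15 had 192 to 1254 after TAC, median 340.1, against 15.1 to 176 after Sham, median 43.2, and the Control groups were apart. Interferon-stimulated genes had 0 higher and 3 lower of 18, led by Ifit2, an RNA-binding antiviral gene (−0.88, adjusted p = 0.159). In adrenergic, angiotensin and endothelin signalling 3 of 20 were higher and 2 lower, led by the receptor genes Adra1b (1.12, adjusted p = 0.17) and Adrb1 (0.62, adjusted p = 0.203), with TAC differences in Control hearts of −1.54 and −0.58. Heat shock proteins had 0 higher and 2 lower of 21, DNA replication and mitosis 1 and 1 of 24, and the circadian list 2 and 2 of 19.

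Genes that respond to TAC in general were examined next, to ask whether the smaller response in cSirt5KO hearts reached beyond the called genes. The average TAC effect over both genotypes was called in 1287 genes (5.31% of those tested), and in 1014 of these (78.8%) the interaction had the opposite sign, which means a smaller or reversed response in cSirt5KO hearts. Of the 692 genes higher after TAC, 571 (82.5%) did so, with a median TAC difference of 0.73 in cSirt5KO and 1.19 in Control hearts. Of the 595 genes lower after TAC, 443 (74.5%) did so, with medians of −0.74 in cSirt5KO and −1.12 in Control hearts. Genes are not independent of each other, and this share is a description. Were the sign of the interaction unrelated to the average TAC effect, smaller and larger responses would be about equally frequent. That reference holds for equal groups without a covariate. With unequal groups or a covariate, the errors of the 2 estimates are related, which by itself can shift the share. The shares from such fits, given next, therefore cannot be set strictly against an even split or against each other. The share was between 73.2 and 83.0% when any 1 library was left out. Within library set 1 it was 80.6% and within set 2 also 80.6%, at 826 of 1025 and 461 of 572 genes. With the series of animal numbers in the fit and all 24 libraries kept it was 51.6%, or 841 of 1631 genes. With library set as well it was 50.1%, or 869 of 1736. In the fits with the series, smaller and larger responses were thus about equally frequent.

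Atrial, epicardial, adipocyte, Schwann and neuronal, and erythroid markers had their highest median level in cSirt5KO Sham hearts. Schwann and neuronal markers were at 5.07 there, against 4.46 in cSirt5KO TAC, 3.26 in Control TAC and 4.66 in Control Sham hearts. Erythroid markers were at 9.20, against 8.87, 8.93 and 8.87 in the same order. Lung and skeletal muscle markers had like medians in cSirt5KO Sham and cSirt5KO TAC hearts, at 1.575 and 1.573. In cSirt5KO Sham replicate 5, however, they reached 3.97, against at most 2.06 in any other library. Synpo2l and Flnc were also highest of their group in this library, and neither was called without it. Macrophage, neutrophil and fibroblast markers had their highest median in cSirt5KO TAC hearts, at 10.12, 4.29 and 11.35. Endothelial and lymphocyte markers had it in Control TAC hearts, at 11.49 and 3.46. For atrial cardiomyocyte markers 8 of 9 genes had a negative interaction, 2 of them at an unadjusted p under 0.05, and 1 had a positive one at that p, with a median of −1.98. Their mean level was 5.44 to 8.56, median 6.44, in cSirt5KO TAC and 6.23 to 11.32, median 8.82, in cSirt5KO Sham hearts. In Control hearts it was 5.37 to 7.54, median 5.91, after TAC and 5.43 to 7.73, median 5.92, after Sham. Nppa, the atrial natriuretic peptide gene that is also part of the fetal program, had an interaction of −2.31 (standard error 0.71, adjusted p = 0.228). Epicardial markers had 6 of 6 and adipocyte markers 6 of 7 negative interactions, with medians of −1.34 and −1.22. The part of epicardial, fat, Schwann, neuronal, erythroid, lung and skeletal muscle cells in the results was not tested. With the mean of the atrial markers Myl4, Myl7 and Sln as a covariate 21 of the 22 genes were still called, of 40 in all, and the hypertrophy and fatty acid medians were −0.88 and 0.41. Of 9 lymphocyte markers 0 were higher and 2 lower at an unadjusted p under 0.05, led by Cd3e of the T cell receptor complex at −2.85 (adjusted p = 0.134), with at most 25.9 normalized counts in any library.

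The calls depended on which libraries and covariates entered. Each of the 22 genes kept its sign under every alternative in which it was tested. The genes were chosen for a large interaction in these same libraries, so that a kept sign was largely fixed by that choice. Of the 22 genes, 11 kept their call when any 1 of the 24 libraries was left out: Ccnd2, Drd2, Ephx2, Gm31663, Gpt, Grb14, Pde8a, Pla2g5, Prr33, Snrpn and Tmem43. Adap1 lost it in 7 of the 24 fits, and the other 10 genes in 13 to 17, Gm40658 most often. The number of genes called was 118 without Control TAC replicate 2, 105 without cSirt5KO TAC replicate 5, 88 without Control Sham replicate 1, 50 without cSirt5KO Sham replicate 6, 44 without Control Sham replicate 5, 36 without Control TAC replicate 3, 35 without cSirt5KO TAC replicate 1 and 34 without Control TAC replicate 4. It was 14 without cSirt5KO TAC replicate 3 or cSirt5KO Sham replicate 4, 13 without cSirt5KO TAC replicate 6 or cSirt5KO Sham replicate 2, 12 without cSirt5KO Sham replicate 3, Control TAC replicate 1 or Control Sham replicates 2 or 3, and 11 without Control TAC replicate 6 or Control Sham replicates 4 or 6.

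With library set as a covariate, 17 of the 22 genes were among 19 called, those lost being Acot1, Flnc, Gm40658, H2-T22 and Scd1. Without the 2 cSirt5KO TAC libraries with Sirt5 in or above the Control range, 12 of the 22 were among 17 called, those lost being Acot1, Adm, Fbp2, Flnc, Gm40658, H2-T22, Itgb1bp2, Pde8a, Scd1 and Slc26a6. The median size of the 22 interactions was 1.03 against 1.10 with all libraries. When cSirt5KO Sham replicate 3 was left out as well, 0 of the 22 were called, at a median size of 1.02, and the single gene called was Angpt1, which encodes the vascular growth factor angiopoietin 1 (2.04, adjusted p = 0.0261). With the series of animal numbers in the fit 4 genes were called, Pde8a of the 22 and also Col5a3, Spon2 and Gm31251, chosen here after their values were seen, and the median size of the 22 was again 1.02. Single genes shifted more in that fit, to 1.11 for Acot1, 1.13 for Gm31663, −0.53 for Ccnd2, −0.63 for Scd1 and 0.75 for Slc26a6, each over 1.5 times nearer to 0. This covariate raises the standard error of an interaction by a factor of 1.25 at a fixed spread, from the uneven placement of the series over the groups, and library set by 1.02. Within set 1 alone 1 gene was called, the predicted gene Gm20400, and within set 2 alone limma called 0 genes, with 2092 at an unadjusted p under 0.05.

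**Figure D5:**
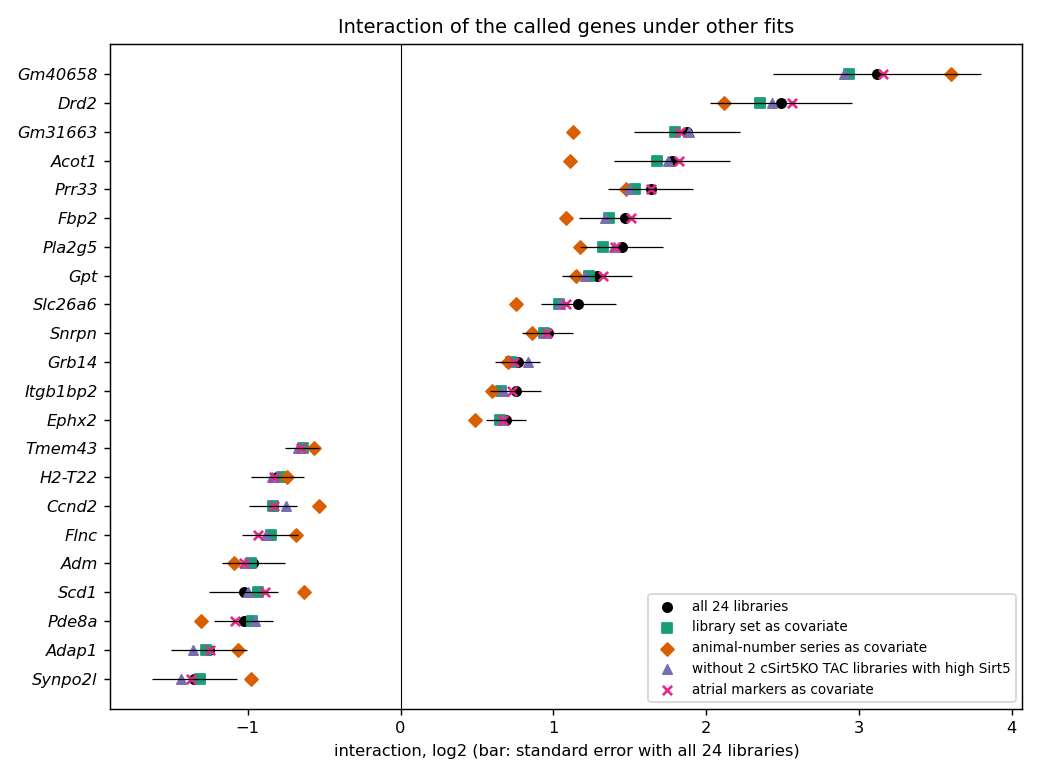
Interaction of the 22 called genes on the log2 scale (x axis) with all 24 libraries (black, bar of 1 standard error) and under 4 other fits: library set or animal-number series as a covariate, without the 2 cSirt5KO TAC libraries with high Sirt5, and atrial markers as a covariate. The values under the animal-number series lie nearest to 0 for most genes, at a median size of 1.02 against 1.10 with all libraries.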

How the data were processed

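Whole-heart RNA of 24 mice was sequenced, with 6 mice in each group. The signal values used here are the authors' deposited normalized counts per gene, which are read counts divided by a size factor of the library. The labels name STAR, Trim Galore and the build mm39, and the read counter is not given in the sources used here. The 14 columns with the authors' own comparisons, which hold fold changes and p-values, were not used. Whole reads were recovered from 100% of the values within a tolerance of 0.001, and on these edgeR's quasi-likelihood test called 25 genes.

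The interaction was fitted with limma (3.58.1, R 4.3.3) on log2(normalized count + 1) over all 24239 genes and 24 libraries, with no filter, and p-values were adjusted by the Benjamini-Hochberg method. A call is an adjusted p under 0.1 and a change over 1.5-fold. Fold changes on this scale understate those of low genes. edgeR (4.0.16), DESeq2 (1.42.0), other pseudocounts, filters, covariates and subsets of libraries served as alternatives. Scripts were tested on simulated data. Python 3.11.15, pandas 2.3.3, numpy 2.4.6 and matplotlib 3.10.9 were used for tables and figures.

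The design, members and gene lists were chosen with earlier results of these data known. Named genes are those called for the interaction, Sirt5, up to 3 members of lowest p in each list described and genes the study names for purine and pyrimidine metabolism, of which 1 is not reported here. Genes outside this rule were named after their values were seen. Gene coordinates are those of the deposited table. No 2 libraries agreed within counting noise (lowest chi-square per degree of freedom of 276 pairs, 8.83).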

Additional observations from a re-analysis of the deposited data

Results flagged for a closer look

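The response to TAC differed between genotypes, by the interaction itself, in 22 genes. The interaction in log2 units was −1.35 for Synpo2l, −1.25 for Adap1, −1.03 for Pde8a, −1.03 for Scd1 and −0.96 for Adm. It was −0.85 for Flnc, −0.83 for Ccnd2, −0.81 for H2-T22 and −0.64 for Tmem43. Positive values were 0.69 for Ephx2, 0.75 for Itgb1bp2, 0.77 for Grb14, 0.96 for Snrpn, 1.16 for Slc26a6 and 1.28 for Gpt. They were 1.45 for Pla2g5, 1.47 for Fbp2, 1.64 for Prr33, 1.78 for Acot1, 1.88 for Gm31663, 2.49 for Drd2 and 3.12 for Gm40658.

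Of 92 groups of 6 hearts tested for a value far from the others, 9 held one, where chance gives about 1 in 20. Replicate 5 of cSirt5KO Sham was far above its group in Synpo2l, at 10211 normalized counts, and in Flnc, at 22205. Replicate 6 of cSirt5KO Sham was far above in Gpt, at 1263, in Drd2, at 341, and in Gm40658, at 3.46, and replicate 3 of that group was far above in Sirt5, at 259. Replicate 1 of Control Sham was far above its group in Synpo2l, at 7093, and in Scd1, at 569. Replicate 3 of cSirt5KO TAC was far below its group in Tmem43, at 835.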

How the results depend on the processing

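Against 22 genes called for the interaction, 12 were called at an adjusted p under 0.05, 71 with array weights, 268 by DESeq2, 37 among genes whose mean reached 10 and 56 among those whose mean reached 100, where fewer genes were tested. Covariates gave 4 genes with the animal series and 10 with library set and series, and within single library sets 1 gene was called in set 1 and 0 genes in set 2 (2092 at an unadjusted p under 0.05 by limma). Leaving out single libraries gave 11 to 118 genes. Of alternatives chosen after seeing the data, 40 genes were called with atrial markers as a covariate, 13 without both high-Sirt5 cSirt5KO TAC libraries and with library set as a covariate, and 1 without these and cSirt5KO Sham replicate 3. Apart from the filters and the subsets of libraries, the cause of these shifts was not tested. TAC-responsive genes with a smaller response in cSirt5KO numbered 1014, or 78.8% of 1287, against 469 of 509 (92.1%) among genes whose mean reached 100. They numbered 461 of 572 (80.6%) in set 2 alone, 841 of 1631 (51.6%) with the animal series, and 860 to 1154 without single libraries. Of 48 gene lists 16 had a median past 0.25 in size, against 9 with the animal series, 9 with library set and series and 26 in set 1 alone, alternatives for the lists being chosen after seeing the data.

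Replicate numbers do not pair the animals: deviations of same-numbered libraries correlated at −0.43 to 0.47, and 7 of 24 libraries correlated best with their own number. With the replicate block 93 genes were called, all 22 among them. Of the results for single named genes under alternatives, 1734 stayed on their side of the threshold, 300 lost the call, 68 gained one and 0 changed direction once called. No animal series held all 4 groups, and this uneven spread limits what 24 libraries can show.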
